A study of Homo sapiens with 6 samples.

Results

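The nuclear lamina genes were 6 of the 13696 genes with values in the table: LMNA, LMNB1, LMNB2, LBR, TMPO and EMD. They were chosen by symbol, with 1 row per gene identifier, and all 6 were expressed above the minimum mean of 1 CPM (CPM being a gene's reads scaled to its library total) and were tested. They were measured in 6 RNA-seq libraries of hTERT RPE-1, an established line from human retinal pigment epithelium made immortal with telomerase. Of these, 3 libraries came from cells that had received a pre-dose of camptothecin, 25 nM for 1 h, and were then kept for 24 h without the drug. The other 3 came from untreated cells. Camptothecin traps topoisomerase 1 on DNA, and the study asks how cells adapt to inhibitors of that enzyme. All libraries share the same line. Nothing in the labels ties replicates to separate cultures, and p-values cover no more than the spread of these libraries, which may be technical. Where 3 values of a group are given in a row, they are replicates 1, 2 and 3 in that order.

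The lamina is a meshwork of intermediate filament proteins under the inner nuclear membrane. A-type lamins come from LMNA, which gives lamin A and lamin C by alternative splicing, and B-type lamins come from LMNB1 and LMNB2. LBR, TMPO and EMD encode proteins that tie the meshwork to the inner membrane and to chromatin. Loss of lamin B1 is widely used as a marker of senescent cells, and B-type lamins, LBR and the TMPO products are more abundant in dividing than in resting cells.

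The effective library totals were 26336942 to 31780392 reads. In them 3 counts correspond to 0.0944 to 0.114 CPM, for counting error alone. All members were far above that level, and the one with the fewest reads, LBR, had an estimated 1352 to 1786 reads per library. The replicate 1 libraries of both groups stood apart, at -18.0 (pre-dose) and -20.6 (untreated) on a first principal component with 59.4% of the variance, where the other 4 libraries lay between 6.94 and 16.4. No batch is named in the labels. Values are given by replicate pair as well, and with replicates 2 and 3 alone. The latter fit sets 2 libraries against 2 and leaves out the difference of the replicate 1 pair. Its p-values cover the spread of those libraries only, and fell or rose there means lower or higher in the pre-dose libraries. Of 16 markers of retinal pigment epithelium that were looked up, 5 had a value. MITF had 46.1 to 50.6 CPM in pre-dose and 44.9 to 46.4 CPM in untreated libraries and OTX2 15.8 to 18.4 and 16.3 to 18.0 CPM, both being transcription factors of that epithelium. Of the epithelial keratin genes, KRT18 was 0.14 lower on the log2 scale in the authors' deposited table (adjusted p = 0.0420), with 413 to 428 CPM in pre-dose and 431 to 461 CPM in untreated libraries. KRT8 had 869 to 919.7 CPM in pre-dose and 875 to 979 CPM in untreated libraries. BEST1, a chloride channel of the mature epithelium, was the lowest of the 5, with 4.14 to 5.24 CPM in pre-dose and 4.19 to 5.40 CPM in untreated libraries. The other 11, among them RPE65, the visual cycle enzyme that defines the mature epithelium, had no value among the 13696 genes and were not analysed here. Of 13 markers of other cell types, SNAP25 alone had a value, with means of 1.48 CPM in pre-dose and 1.22 CPM in untreated libraries.

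LMNB1, TMPO and LBR are the 3 members that were lower in the pre-dose library of the replicate 2 and 3 pairs and higher in that of the replicate 1 pair, a pattern found for 16.2% of all genes tested. In the replicate 1 pair LMNB1 differed by 0.02 and LMNB2 by -0.02. Both lie within the median absolute difference of 0.07 over all genes tested, so that pair does not set LMNB1 apart from LMNB2. The promoters of LMNB1, TMPO and LBR are shown for the pattern of signs alone. They are RefSeq promoters on GRCh38.p14, each with 250 bases before and 50 after a transcript start, read 5′ to 3′ on the gene's strand, and the entries shown start 12 (LMNB1), 40 (TMPO) and 34 (LBR) bases from the start of the principal GENCODE transcript. Capitals mark the CCAAT box (CCAAT, or ATTGG on the other strand).
LMNB1 (chr5:126776886-126777185, plus strand): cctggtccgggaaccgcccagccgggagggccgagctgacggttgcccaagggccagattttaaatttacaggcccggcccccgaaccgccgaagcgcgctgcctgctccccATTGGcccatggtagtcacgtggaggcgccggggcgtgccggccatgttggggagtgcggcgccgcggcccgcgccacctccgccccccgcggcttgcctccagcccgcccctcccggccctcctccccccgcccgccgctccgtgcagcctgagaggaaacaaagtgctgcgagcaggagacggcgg
TMPO (chr12:98515340-98515639, plus strand): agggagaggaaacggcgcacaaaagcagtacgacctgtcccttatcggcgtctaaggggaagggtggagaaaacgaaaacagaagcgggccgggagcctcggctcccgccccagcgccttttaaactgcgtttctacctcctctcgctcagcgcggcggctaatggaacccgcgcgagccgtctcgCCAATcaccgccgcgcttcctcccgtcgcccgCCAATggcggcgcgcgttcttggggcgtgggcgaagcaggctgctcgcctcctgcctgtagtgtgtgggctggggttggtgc
LBR (chr1:225428772-225429071, minus strand): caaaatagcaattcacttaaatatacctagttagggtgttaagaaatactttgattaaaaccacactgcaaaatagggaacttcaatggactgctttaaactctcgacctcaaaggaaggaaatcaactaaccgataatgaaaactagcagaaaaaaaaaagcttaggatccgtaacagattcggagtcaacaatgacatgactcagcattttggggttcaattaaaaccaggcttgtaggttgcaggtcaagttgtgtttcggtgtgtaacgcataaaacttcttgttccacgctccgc
The LMNB1 promoter shown held 1 CCAAT box, on the minus strand with its bases at -138 to -134 from the start. The TMPO promoter held 2, at -64 to -60 and -32 to -28. The LBR promoter held 0. CCAAT was found on either strand in 34.6% of all 35116 promoters of that length. A cell cycle homology region spelled TTTGAA and an E2F core spelled TTCCCGC or TTGGCGC were not found in these 3 windows. Those spellings occur in 15.2% and 9.23% of all promoters, and other forms of the motifs were not searched for. The GC box (GGGCGG) occurs in 45.0% of all promoters, and was found 4 times for LMNB1, 1 time for TMPO and not for LBR. GC content was 73.7% for LMNB1, 65.3% for TMPO and 38.3% for LBR, against a median of 58.7% over all promoters. The matches in these windows do not overlap each other. Another RefSeq entry of LMNB1, 525 bases from the start of the principal transcript, held none of these motifs and had a GC content of 52.0%. Of the other members, LMNB2 had TTTGAA at -246 to -241, and 1 of 3 RefSeq entries of LMNA had an E2F core (TTCCCGC) at -22 to -16, which overlaps a GC box. That LMNA entry also held 1 CCAAT box, at -146 to -142. EMD held 2 CCAAT boxes and neither TTTGAA nor an E2F core. These are matches of letters and say nothing about binding. RefSeq starts of LMNA lay at least 7991 bases from the start of its principal transcript in GENCODE release 29, and none is printed.

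LMNB1 was lower after the pre-dose in 2 of the 3 pairs and not in the replicate 1 pair. The gene lies on chromosome 5 from 126776623 to 126837020 on the plus strand (GRCh38), and its identifier is ENSG00000113368. It had 139, 75.7 and 94.2 CPM in pre-dose libraries, against 137, 113 and 121 CPM in untreated libraries. Both low values were the pre-dose libraries of replicates 2 and 3, and pre-dose replicate 1 was the highest of all 6, so the groups overlapped. The means were 103 ± 32.7 CPM in pre-dose and 124 ± 12.2 CPM in untreated libraries (SD, n = 3 each). The differences of the pairs were 0.02, -0.58 and -0.36 on the log2(CPM + 1) scale. Over all 6 libraries the limma difference was -0.31, with a 95% interval of -0.79 to 0.17, and did not pass (adjusted p = 1.00, unadjusted p = 0.174). In replicates 2 and 3 alone LMNB1 was lower in pre-dose libraries, with a limma difference of -0.47 (-0.65 to -0.30, adjusted p = 0.00638). In that fit 0.411% of the genes tested had a lower difference. Leaving out 1 library moved the difference over all libraries to -0.55 (without pre-dose replicate 1) or -0.11 (without pre-dose replicate 2). Whether the replicate 1 pair differs from the others was not tested. In these bulk libraries, fewer cells that carry a transcript and less of it per cell cannot be told apart.

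LMNB2 (ENSG00000176619), the other B-type lamin gene, lies on chromosome 19 from 2427638 to 2456996 on the minus strand. It had 273, 163 and 185 CPM in pre-dose libraries, against 277, 210.1 and 207 CPM in untreated libraries. The replicate 1 libraries were the highest in both groups, by 0.53 on the log2 scale on average. Within replicates 2 and 3 the pre-dose libraries were the lower ones. The pair differences were -0.02, -0.36 and -0.16, and the limma difference over all libraries was -0.18 (-0.65 to 0.29, adjusted p = 1.00). In replicates 2 and 3 alone it was -0.26 (-0.37 to -0.15, adjusted p = 0.0140).

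LMNA (ENSG00000160789) was the member with the smallest difference over all libraries. It lies on chromosome 1 from 156082573 to 156140089 on the plus strand and had 1364, 1163 and 1197 CPM in pre-dose libraries, against 1440.3, 1112 and 1131 CPM in untreated libraries. The replicate 1 libraries were again highest, and in replicates 2 and 3 the pre-dose library was the slightly higher one. Its pair differences were -0.08, 0.06 and 0.08. The limma difference was 0.02 over all libraries (-0.25 to 0.29, adjusted p = 1.00) and 0.07 in replicates 2 and 3 alone (0.00 to 0.15, adjusted p = 0.237). The sign over all libraries turned to -0.05, -0.04 and -0.03 without pre-dose replicate 1, untreated replicate 2 or untreated replicate 3, so no direction is given for LMNA. Lamin A and lamin C transcripts were counted together and cannot be told apart here.

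**Figure D1:**
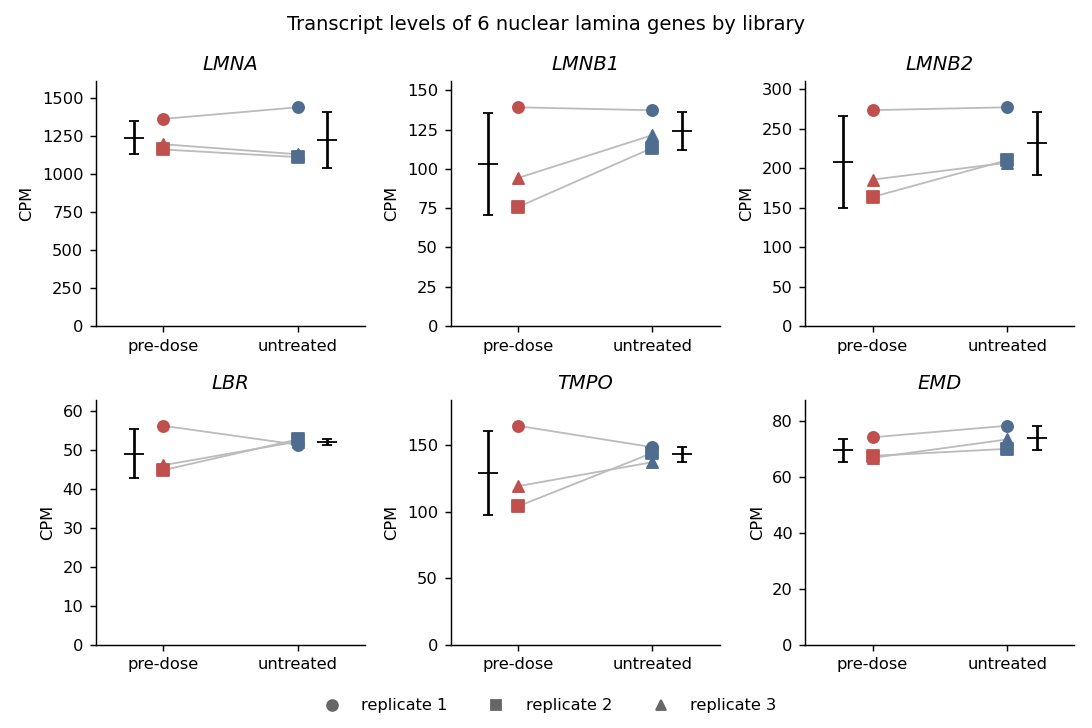
Levels in CPM (linear axis from 0) of the 6 lamina genes in each library, pre-dose on the left and untreated on the right. Symbols mark replicates, grey lines join equal replicate numbers, and black bars give the mean and SD of 3 libraries. The pre-dose libraries of replicates 2 and 3 are lowest for LMNB1 (75.7 and 94.2 CPM), and pre-dose replicate 1 is level with its untreated partner (139 and 137 CPM).

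LBR (ENSG00000143815), the lamin B receptor, which binds B-type lamins and heterochromatin and also acts as a sterol reductase, had the most even untreated levels. It lies on chromosome 1 from 225401502 to 225428925 on the minus strand. It had 56.2, 44.8 and 46.1 CPM in pre-dose libraries, against 51.4, 52.7 and 52.2 CPM in untreated libraries. The untreated libraries lay between both low pre-dose libraries and the high pre-dose replicate 1. The pair differences were 0.13, -0.23 and -0.18. The limma difference was -0.09 over all libraries (-0.31 to 0.12, adjusted p = 1.00) and -0.20 in replicates 2 and 3 alone (-0.30 to -0.10, adjusted p = 0.0258).

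TMPO (ENSG00000120802), whose splice forms are the lamina-associated polypeptides of the LAP2 family, lies on chromosome 12 from 98515512 to 98550379 on the plus strand. It had 165, 104 and 119 CPM in pre-dose libraries, against 149, 144 and 137 CPM in untreated libraries. As for LBR, pre-dose replicate 1 was the highest library and the other pre-dose libraries the lowest. The pair differences were 0.15, -0.47 and -0.20. The limma difference was -0.17 over all libraries (-0.54 to 0.19, adjusted p = 1.00) and -0.34 in replicates 2 and 3 alone (-0.46 to -0.21, adjusted p = 0.00646). GENCODE names 2 processed pseudogenes of TMPO, TMPOP1 and TMPOP2, and an antisense gene, TMPO-AS1, that overlaps it by 911 bases, and whether reads were counted by strand is not given. Reads of TMPO and TMPO-AS1 in the shared bases can therefore not be told apart, and the pseudogenes were not analysed here. TMPO-AS1 had 10.5, 6.31 and 8.08 CPM in pre-dose libraries, against 10.01, 9.78 and 8.31 CPM in untreated libraries.

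EMD (ENSG00000102119), which encodes emerin, a LEM-domain protein that binds lamin A, lies on chromosome X from 154379197 to 154381523 on the plus strand. It had 74.1, 67.4 and 66.7 CPM in pre-dose libraries, against 78.2, 70.0 and 73.3 CPM in untreated libraries. Each pre-dose library was a little below its untreated partner, by 0.08, 0.05 and 0.13 on the log2 scale, and the groups overlapped. The limma difference was -0.09 over all libraries (-0.25 to 0.08, adjusted p = 1.00) and -0.09 in replicates 2 and 3 alone (-0.19 to 0.00, adjusted p = 0.244).

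**Figure D2:**
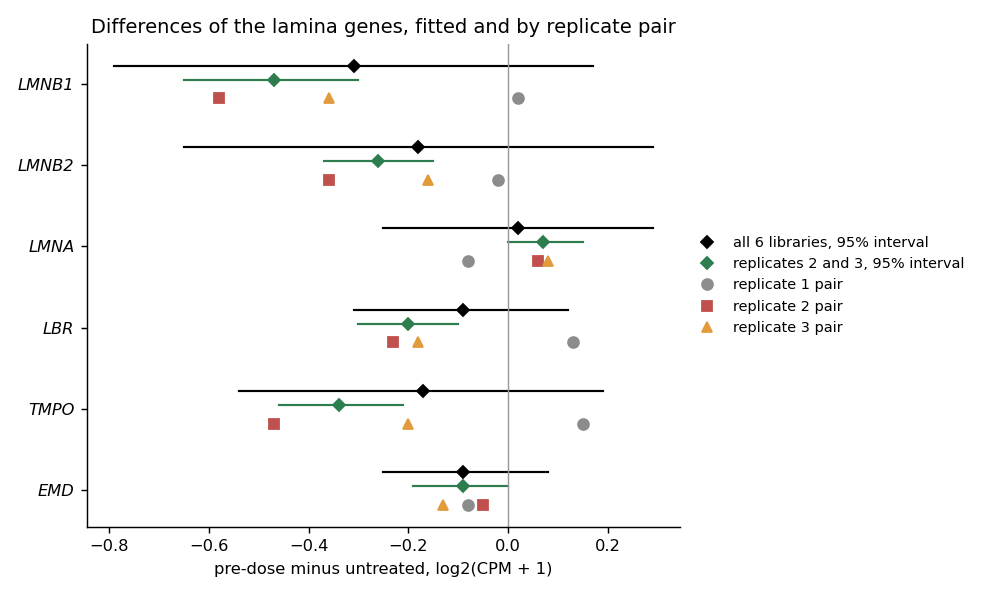
Pre-dose minus untreated differences on the log2(CPM + 1) scale (horizontal axis) for each lamina gene. Diamonds with lines are limma differences with 95% intervals from all 6 libraries (black) and from replicates 2 and 3 (green), and other symbols are single replicate pairs. LMNB1, TMPO and LBR lie above 0 in the replicate 1 pair (0.02, 0.15 and 0.13) and below it in both others.

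Over all 6 libraries limma called 0 of the 6 members at an adjusted p of 0.05, where 0% of the 13616 genes tested were called, and 0 of the 6 at an unadjusted p under 0.05, where 2.06% were. The groups overlapped for each of the 6 members, and did not overlap for 6.55% of all genes tested. With the replicate block, LMNB1 and LMNB2 were 2 members at an unadjusted p under 0.05 (0.00979 and 0.0139), where 10.6% of genes were, and 0 passed after adjustment (adjusted p = 0.354 and 0.392). With library quality weights 0 members passed, where 1.39% of genes did, LMNB1 having an adjusted p of 0.0842. LMNB2 and EMD were the 2 members lower in all 3 pairs, as 16.3% of genes were, with LMNB2 at only -0.02 in the replicate 1 pair. Without replicate 1, 4 of the 6 members, LMNB1, LMNB2, LBR and TMPO, were lower at an adjusted p of 0.05. In that fit 3.47% of genes were called lower and 2.89% higher. It has 2 libraries per group and leaves out the pair in which LMNB1, TMPO and LBR were not lower. The median difference of the 6 members in that fit was -0.23, beside 0.00 over all genes tested. With both replicate 1 libraries in, the median was -0.13. None of the 6 members, 0 in all, passed an adjusted p of 0.05 in the authors' deposited table, where 1.45% of genes were lower and 1.61% higher. That table gave LMNB1 a log2 fold change of -0.38 (-0.59 to -0.16), LBR -0.18 (-0.28 to -0.07) and TMPO -0.25 (-0.41 to -0.09), turned here to pre-dose minus untreated, with adjusted p values of 0.0643, 0.0681 and 0.0813. These lay nearer to the limma differences with library quality weights (-0.39, -0.18 and -0.27) than to those without (-0.31, -0.09 and -0.17). Those weights were lowest for the replicate 1 libraries (0.209 in pre-dose and 0.231 in untreated). Whether the authors weighted libraries was not tested. At an unadjusted p under 0.05 the authors' deposited table held 5 of the 6 members as lower, LMNA being the other, where 11.2% of its genes were lower. Each of these comparisons uses libraries of the same series, so they are not independent of each other.

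Relative to LMNA, LMNB1 was lower in the pre-dose libraries of replicates 2 and 3 and not in that of replicate 1. A ratio within a library does not depend on the library total. There were 10.2, 6.51 and 7.87 CPM of LMNB1 per 100 CPM of LMNA in pre-dose libraries, against 9.53, 10.2 and 10.7 in untreated libraries. The log2 ratio averaged -3.63 ± 0.326 in pre-dose and -3.30 ± 0.0866 in untreated libraries (SD, n = 3 each), a difference of -0.33 that did not pass an exact two-sided permutation test (p = 0.3, 0.4 adjusted over 6 ratios). With 3 libraries against 3 the smallest p such a test can give is 0.1. In the pairs the log2 ratio differed by 0.10, -0.65 and -0.45. LMNB2 had 20.1, 14.1 and 15.5 CPM per 100 CPM of LMNA in pre-dose and 19.2, 18.9 and 18.3 in untreated libraries (exact permutation p = 0.4, 0.4 adjusted). LMNB1 itself differed from LMNB2 by 0.04, -0.22 and -0.21 in the log2 ratio of the pairs (exact permutation p = 0.3, 0.4 adjusted). Ratios of LBR, TMPO and EMD to LMNA differed by -0.12, -0.20 and -0.11 with exact permutation p values of 0.4, 0.2 and 0.4, each 0.4 when adjusted.

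**Figure D3:**
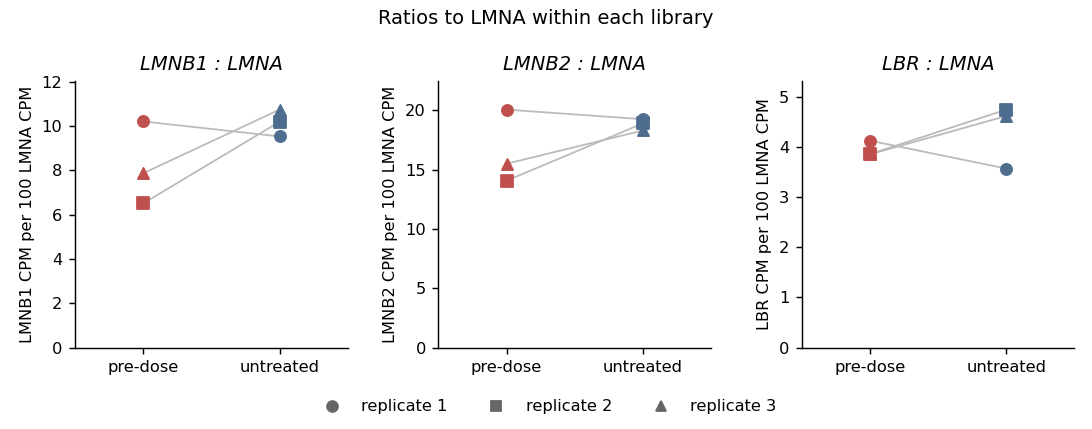
CPM of LMNB1, LMNB2 and LBR per 100 CPM of LMNA in the same library (linear axes from 0), pre-dose on the left and untreated on the right, with lines joining equal replicate numbers. LMNB1 is at 6.51 and 7.87 in pre-dose replicates 2 and 3, and the other 4 libraries are between 9.53 and 10.7.

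Levels of different genes can be compared per length, here as CPM per kilobase of the principal GENCODE transcript. LMNA was the highest, with 389 ± 33.7 in pre-dose and 385 ± 57.8 in untreated libraries. EMD followed with 50.3 ± 2.94 and 53.5 ± 3.01, LMNB2 with 44.4 ± 12.5 and 49.5 ± 8.49, LMNB1 with 35.8 ± 11.3 and 43.1 ± 4.22 and TMPO with 35.8 ± 8.75 and 39.7 ± 1.57, in pre-dose and untreated libraries (SD, n = 3 each). From EMD to TMPO, neighbours in this order differed by less than the larger of their SDs in both groups. LBR was the lowest, with 12.9 ± 1.64 in pre-dose and 13.7 ± 0.180 in untreated libraries. When the length of all annotated exons was used, LMNA stayed the highest and LBR the lowest, LMNB2 at 38.2 in pre-dose and 42.6 in untreated libraries stood above EMD at 34.4 and 36.5, and TMPO was at 15.1 in pre-dose and 16.7 in untreated libraries, below LMNB1 at 28.4 and 34.1. Of the summed per-length level of the 3 lamin genes, LMNB1 made up 9.05, 6.18 and 7.31% in pre-dose libraries, against 8.54, 9.10 and 9.57% in untreated libraries. LMNA made up 80.0 to 85.6% in pre-dose and 80.4 to 80.8% in untreated libraries.

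Genes for other proteins of the nuclear envelope were read from 4 lists. The list of lamin-binding inner membrane proteins and their partners had 12 measured genes. Of these 0 passed over all libraries, 0 of them at an unadjusted p under 0.05, and the median difference was -0.09. The smallest p values were those of PRR14, which tethers heterochromatin to the lamina (30.4 ± 1.75 CPM in pre-dose and 33.6 ± 0.510 CPM in untreated libraries), and ANKLE2, a LEM-domain protein of nuclear reassembly (156 ± 6.46 and 167 ± 4.18 CPM). TOR1AIP2, an activator of torsin ATPases, was at 64.7 ± 0.665 and 61.1 ± 0.452 CPM, and LEMD2 at 59.7 ± 0.563 and 63.1 ± 0.549 CPM (SD, n = 3 each). The groups did not overlap for 2 of the 12 as lower, PRR14 and LEMD2, and for 1 as higher, TOR1AIP2. Among all genes tested 6.55% did not overlap, in either direction. Without replicate 1, 2 of the 12 fell, LEMD3 by 0.24 and NEMP1 by 0.26 on the log2 scale (adjusted p = 0.0289 and 0.0393), where 3.47% of all genes did. These 2 are named after their values were seen.

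The LINC complex, which couples the lamina to the cytoskeleton through SUN and nesprin proteins, had 6 measured genes. The lamin processing list holds enzymes that farnesylate, cleave and methylate lamin tails, and NARF, which is not such an enzyme. It had 6 measured genes as well. In both lists 0 genes passed, over all libraries, in replicates 2 and 3 alone or in the authors' deposited table, and limma gave 0 at an unadjusted p under 0.05 over all libraries. The median differences were -0.05 and -0.04. SUN2, a LINC protein of the inner membrane, had 169 ± 16.4 CPM in pre-dose and 179 ± 12.0 CPM in untreated libraries, and ICMT, the methyltransferase of farnesylated tails, 180.4 ± 26.8 and 190.4 ± 21.1 CPM (SD, n = 3 each). SYNE2, a giant nesprin, had 95.9 ± 3.62 CPM in pre-dose and 101 ± 6.26 CPM in untreated libraries, and RCE1, a protease of farnesylated tails, 11.2 ± 0.775 and 11.7 ± 0.393 CPM. In each of these genes the groups overlapped.

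The nuclear pore, which spans the envelope and is anchored at the lamina, had 32 measured genes. Of these 0 passed over all libraries, 0 of them at an unadjusted p under 0.05, with a median difference of -0.08. Without replicate 1, 8 fell and 0 rose, where 3.47% and 2.89% of all genes did, with a median of -0.12. NUP85 and NUP107, both of the Y-shaped scaffold complex, were the 2 past an adjusted p of 0.05 in the authors' deposited table (0.0434 and 0.0485), as lower. NUP85 had 31.0, 22.9 and 24.6 CPM in pre-dose libraries, against 32.9, 31.0 and 29.2 CPM in untreated libraries. NUP107 had 41.2, 33.4 and 34.7 CPM, against 42.1, 42.7 and 39.7 CPM. For both genes the pre-dose libraries of replicates 2 and 3 were the lowest and pre-dose replicate 1 was near its partner. NUP153, of the nuclear basket, had 68.6 ± 5.01 CPM in pre-dose and 73.6 ± 2.68 CPM in untreated libraries (SD, n = 3 each).

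**Figure D4:**
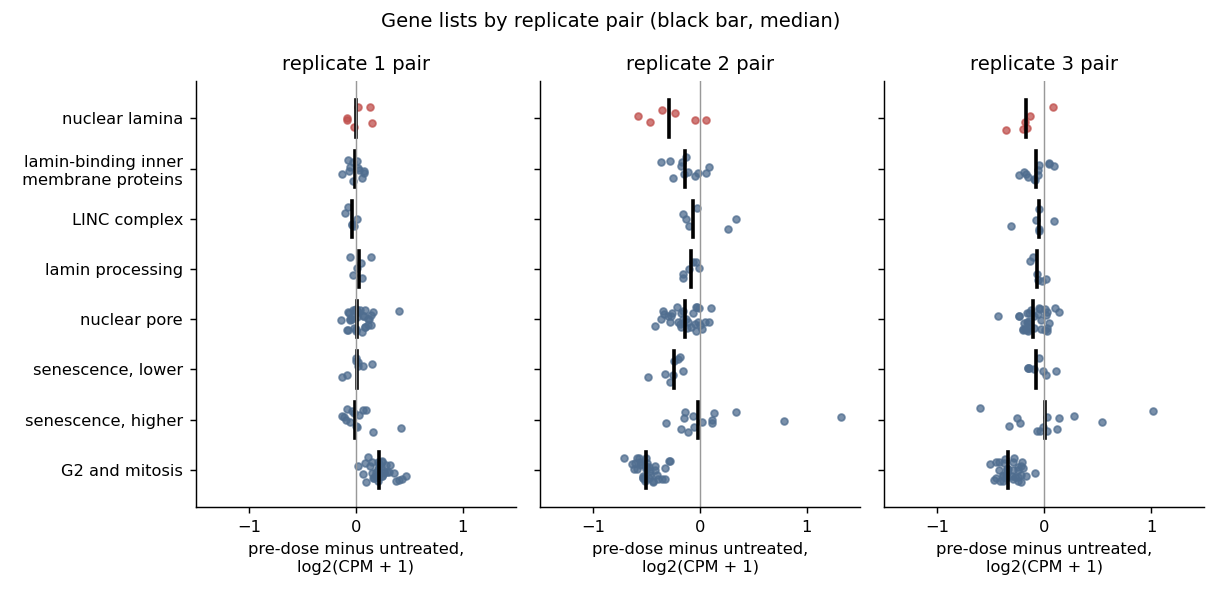
Pre-dose minus untreated differences on the log2(CPM + 1) scale for each measured gene of 8 lists, in the replicate 1, 2 and 3 pairs, with the median as a black bar. The nuclear lamina medians are 0.00, -0.30 and -0.17, and those of the G2 and mitosis list are 0.22, -0.51 and -0.34.

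Loss of LMNB1 is read as a senescence marker together with other genes. CDKN1A, which encodes the cell cycle inhibitor p21, had 217, 573 and 472 CPM in pre-dose libraries, against 162, 229 and 233 CPM in untreated libraries. Its highest libraries, pre-dose replicates 2 and 3, were the lowest for LMNB1. Its limma difference over all libraries was 0.92 (0.11 to 1.73, unadjusted p = 0.0311) and did not pass after adjustment. CDKN2A, whose products include p16, had a lower mean, with 136 ± 5.30 CPM in pre-dose and 145 ± 2.18 CPM in untreated libraries (SD, n = 3 each). Its groups did not overlap, as for 6.55% of all genes tested, and it did not pass in limma over all libraries (unadjusted p = 0.142). Of 14 measured genes that are typically higher in senescent cells, 0 passed over all libraries, and 1, CDKN1A, had an unadjusted p under 0.05. Among all genes tested 2.06% did. Without replicate 1, 3 rose and 2 fell, where 2.89% of all genes rose and 3.47% fell. Those that rose were CDKN1A, the cytokine gene IL1B and the secreted IGFBP3, by 1.17, 0.66 and 0.19 on the log2 scale, and those that fell were the chemokine gene CCL2 and IGFBP5, by 0.46 and 0.22 (adjusted p = 2.3e-05, 0.00361, 0.0220, 0.00662 and 0.0111). CCL2 is named after its value was seen. The authors' deposited table called CDKN1A, IL1B and IGFBP3 higher and IGFBP5 lower (adjusted p = 0.0254, 0.0475, 0.0388 and 0.0344). Of all its genes 1.61% were called higher and 1.45% lower. The median of the list was -0.03 without replicate 1 and -0.02 over all libraries.

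Of 8 genes that are typically lower in senescent cells, 0 passed over all libraries, 0 of them at an unadjusted p under 0.05, with a median difference of -0.10. Without replicate 1, HMGB2, a chromatin protein, and CBX5, the heterochromatin protein HP1 alpha, fell by 0.32 and 0.17 (adjusted p = 0.0247 and 0.0134), 2 of the 8, where 3.47% of all genes fell. HMGB2 had 159, 98.6 and 119.9 CPM in pre-dose libraries, against 143, 139 and 133 CPM in untreated libraries. HMGB1, which also declines in senescence, had 247 ± 15.4 CPM in pre-dose and 254 ± 9.87 CPM in untreated libraries (SD, n = 3 each).

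Genes of G2 and mitosis were read because B-type lamin transcripts differ between dividing and resting cells. The mean of the 35 measured list genes was 6.76, 6.07 and 6.21 on the log2(CPM + 1) scale in pre-dose libraries, against 6.53, 6.56 and 6.53 in untreated libraries. MKI67, the proliferation marker Ki-67, had 1225, 741 and 855 CPM in pre-dose libraries, against 1059.6, 1033 and 1039.5 CPM in untreated libraries. Its limma difference was -0.18 over all libraries (unadjusted p = 0.306) and -0.38 in replicates 2 and 3 alone (adjusted p = 0.00272). In the replicate 1 pair 35 of the 35 list genes were higher in the pre-dose library, and in the replicate 2 and 3 pairs 0 were. Of all genes tested 51.6%, 50.7% and 49.5% were lower in the replicate 1, 2 and 3 pairs. Genes of a list are not replicates of a pair. Over all libraries 0 of the 35 passed in limma, 0 of them at an unadjusted p under 0.05, and in replicates 2 and 3 alone 34 fell, where 3.47% of genes did. In that fit 8 of the 35 had a lower difference than LMNB1, and the list ran from -0.55 (NUF2, a kinetochore protein) to -0.19 (PTTG1, securin, named after its value was seen). As lower, 15 of the 35 were called in the authors' deposited table, with BUB1B, a spindle checkpoint kinase, at the smallest adjusted p of 0.0254, where 1.45% of all genes were called lower.

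Relative to the mean of that list, LMNB1 stood at 0.37, 0.19 and 0.36 on the log2 scale in pre-dose libraries, against 0.58, 0.28 and 0.40 in untreated libraries. Set against mitotic genes in this way, LMNB1 was a little lower in the pre-dose library of each pair, by 0.21, 0.09 and 0.04, and the groups overlapped. The difference was -0.11 and did not pass an exact two-sided permutation test (p = 0.4, 0.8 adjusted over the 6 members, with 0.1 the smallest possible). For the other members the difference relative to the list was above 0, at 0.22 for LMNA, 0.11 for EMD, 0.10 for LBR, and 0.02 for both TMPO and LMNB2. The exact permutation p values were 0.2, 0.6, 0.4, 0.8 and 1.0 for LMNA, EMD, LBR, TMPO and LMNB2. They were 0.8, 0.9, 0.8, 0.96 and 1.0 when adjusted, and the groups overlapped for each of these members. That list was set beside the members after their values were seen, and the part of cell cycle stage in the lamina values was not tested.

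**Figure D5:**
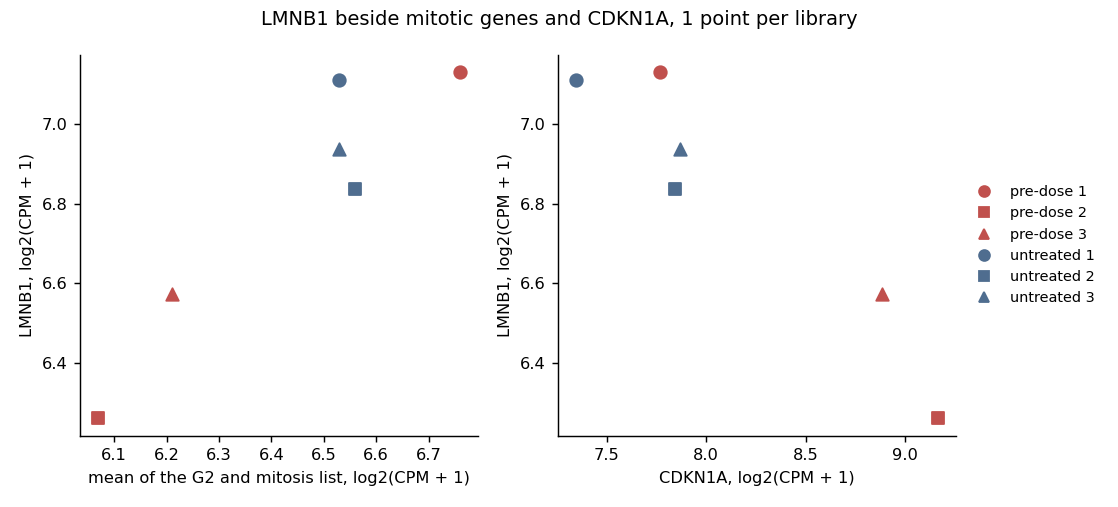
LMNB1 level (vertical axis, log2(CPM + 1)) against the mean of 35 G2 and mitosis genes (left) and against CDKN1A (right), with 1 point per library. Pre-dose replicates 2 and 3 are apart from the other 4 libraries, with list means of 6.07 and 6.21 and CDKN1A at 573 and 472 CPM.

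Of 9437 genes averaging 10 CPM or more, the 6 whose profile over the 6 libraries was closest to that of LMNB1 were KIFC1, KIF18B, KIF22, INCENP, SPAG5 and TACC3. Closeness was the root-mean-square difference of log2(CPM + 1) values after each gene's own mean was taken off, and was 0.033 for KIFC1 and 0.069 for TACC3. KIFC1 had 114, 59.8 and 75.2 CPM in pre-dose libraries, against 105, 92.9 and 96.6 CPM in untreated libraries. It had the order of LMNB1 in each library, highest in pre-dose replicate 1 and lowest in pre-dose replicate 2. LMNB2 ranked 55 and TMPO 76 in closeness to LMNB1, at 0.105 and 0.114, LBR ranked 1048 and LMNA 2332. For TMPO the closest gene was HMGB2 (0.026), for LMNB2 RFC2 (0.027), for LBR DIAPH3 (0.012), for LMNA HAX1 (0.014) and for EMD CFL1 (0.016). These are descriptions over 6 libraries that share the offset of replicate 1.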

How the data were processed

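Per the labels' protocols, RNA selected by its poly-A tail gave paired reads of 150 bases. The authors deposited expression on a log2 scale in CPM, and their own comparison as log2 fold changes, p-values and a moderated statistic (a score), per the file headers. Per the submitters' processing notes, bcl2fastq, DRAGEN, edgeR and limma were used with hg38. How reads were counted, by which annotation and strand setting, is not given in the sources used here. Their fold change ran as untreated minus pre-dose and was turned round. The table's 13773 rows held 77 repeats of an identifier, which were left out. The deposited log2 values were turned back to CPM, and library totals were read from the lowest value, taken as 0.5 of a read. Groups and replicate numbers came from the sample titles.

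Genes averaging 1 CPM or more, 13616 in all, were tested with limma 3.58.1 (trend) in R 4.3.3 on log2(CPM + 1), without a block, with Benjamini-Hochberg adjustment over all of them and a threshold of 0.05. Fold changes on that scale understate low genes. Single ratios were tested by exact permutation (scipy 1.17.1), and figures drawn with matplotlib 3.10.9. The fits were tested on simulated data. The members, lists and tests were chosen with earlier results of these data known. Named genes were the members, CDKN1A and MKI67 whatever their result, the 4 smallest p values of each list and calls of the authors' deposited table, with examples of these given. Numbers were taken to pair libraries, though the labels do not state a pairing. Deviations from group means correlated across genes at 0.66, 0.45 and 0.18 for same-numbered libraries. Pre-dose replicate 2 correlated with untreated replicate 3 at 0.51, and pre-dose replicate 3 with untreated replicate 2 at 0.28. The correlations therefore set the replicate 1 libraries together but do not decide between the 2 ways of pairing the others. The pairing does not enter the main fit. Positions came from GENCODE release 29 and promoters from RefSeq on GRCh38.p14, with all 6 members matched.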

Additional observations from a re-analysis of the deposited data

How the results depend on the processing

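Over all 6 libraries 0 genes, 0 members and 0 list genes passed in limma. The counts stayed at 0 with another pseudocount, another filter, quantile or median scaling, the replicate block, or any single library left out. With library quality weights, estimated gene by gene since the default estimate did not converge, 189 genes and 11 list genes passed and 0 members did. Those 189 were 1.39% of all genes tested. The weights of the replicate 1 libraries were 0.209 (pre-dose) and 0.231 (untreated), the lowest. In replicates 2 and 3 alone 866 genes, 4 members and 51 list genes passed. Of those list genes 34 belonged to the G2 and mitosis list of 35. In that fit 3.47% of all genes were called lower and 2.89% higher. LMNB1 passed in that fit alone (-0.47, adjusted p = 0.00638), as did LMNB2, LBR and TMPO. The LMNB1 difference with the replicate block was -0.31 (adjusted p = 0.354, unadjusted p = 0.00979), and the block changed no call. At an unadjusted p under 0.05 it gave 2 members and 1443 genes, against 0 members and 280 genes without it. Leaving out single libraries gave LMNB1 differences of -0.55 (without pre-dose replicate 1) to -0.11 (without pre-dose replicate 2), and log2 ratios of LMNB1 to LMNA differing by -0.50 to -0.18. These fits have no block, so the offset of a lone replicate 1 library enters them. The paired value of that ratio under the replicate block was -0.33 (exact sign permutation p = 0.5). With 3 pairs a two-sided test of that kind cannot fall under 0.05, so it decides nothing. LMNA ran from -0.05 to 0.14, with -0.05, -0.04 and -0.03 without pre-dose replicate 1, untreated replicate 2 and untreated replicate 3, and the cause was not tested. The fits on 4 libraries drop replicate 1 as a whole, and depth does not limit the members.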

Other observations

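TIMM13, a mitochondrial import gene that overlaps LMNB2 by 257 bases on the same strand, had 71.9, 59.2 and 60.5 CPM in pre-dose replicates 1, 2 and 3, against 78.0, 61.4 and 58.9 CPM in untreated replicates 1, 2 and 3. How reads in the shared bases were counted is not given.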
